A study of Cynoglossus semilaevis with 30 samples.

Results

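The genes described here are the 10 genes, of 22292 in the deposited expression table of the Chinese tongue sole (Cynoglossus semilaevis, a flatfish), whose product names contain "MHC class" or "histocompatibility antigen", leaving out transactivators and minor antigens. The class I genes number 2 and the class II genes 8, of which 3 are named as alpha chains, 3 as beta chains, 1 as the invariant chain (cd74) and 1 as a regulatory factor (rfx1). RNA of 5 tissues (the brain, the pituitary, liver, muscle and gonad) was sequenced in large and in small females, all aged 1.7 years. Each of the 10 groups of tissue and size held 3 libraries, and each library was made from the combined RNA of 2 fish, so that 6 fish stood for a size class. The labels name no treatment, strain or allele, do not give the body sizes and do not say whether the same fish gave all 5 tissues. If these 6 fish were all those used for a size class, the same fish gave every tissue. Tests over all 30 libraries treated the libraries as independent. Summed estimated counts ran from 6130667 to 10504899 per library, so that the 3 counts taken as a detection floor correspond to between 0.286 and 0.489 CPM, the counts scaled to library size.

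MHC class I molecules sit on nearly all nucleated cells and show peptides from the cell's own cytosol to cytotoxic T cells, after the proteasome has cut them and the TAP transporter has moved them into the endoplasmic reticulum. Class II molecules are pairs of an alpha and a beta chain found mainly on macrophages, dendritic cells, B cells and, in the brain, microglia, and show peptides from engulfed material to helper T cells. The invariant chain, encoded by cd74, escorts class II pairs to the endosome, where cathepsins remove it.

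The abundant alpha chain LOC103390006 (MHC class II antigen alpha, listed by RefSeq also as Cyse-DAA and Cyse-DBA) and the abundant beta chain LOC103390015 are next to each other in the gene order of the RefSeq assembly Cse_v1.0, in which 9 of the 10 genes were found. The scarce chains are also adjacent in pairs of an alpha and a beta gene, LOC103388185 with LOC103388186 and LOC103388961 with LOC103388958. The gene tap1, a subunit of the peptide transporter, follows LOC103388961 with 1 gene between them. The class I gene LOC103393860 has 11 genes between it and psmb8a, an immunoproteasome subunit, and 15 between it and tap2a, the other transporter subunit. The beta chains carry similar product names, as do the alpha chains, but their sequences were not compared. How any reads shared between such genes were divided was not stated in the sources.

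Levels between genes and tissues are given in FPKM, a fragment count normalised to transcript length and library size. The class I signal came almost wholly from LOC103393860, the alpha chain that holds the peptide, which made up at least 98.5% of the class I sum in every library. It stood at 407 ± 80.2 FPKM (SD, n = 6) in brain, 373 ± 37.3 FPKM in pituitary, 113 ± 31.7 FPKM in liver, 105 ± 7.72 FPKM in muscle and 29.8 ± 8.21 FPKM in gonad. The brain and pituitary libraries overlapped, as did those of liver and muscle, whereas all 6 gonad libraries lay below those of every other tissue. The second class I gene, LOC103389185, had 52 counts over all 30 libraries and was at 0 in 9 of them, so that it passed the filter on low counts in no tissue.

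Among the class II genes cd74 was the most abundant per length, at 2661 ± 910.3 FPKM (SD, n = 6) in brain, 573 ± 239 FPKM in pituitary, 412 ± 111 FPKM in liver, 313 ± 73.9 FPKM in muscle and 86.1 ± 20.01 FPKM in gonad. The alpha chain LOC103390006 stood at 830.2 ± 293 FPKM in brain, 196 ± 68.5 FPKM in pituitary, 133 ± 42.2 FPKM in liver, 128 ± 65.3 FPKM in muscle and 12.8 ± 5.36 FPKM in gonad. The beta chain LOC103390015 stood at 616 ± 225 FPKM in brain, 156 ± 44.9 FPKM in pituitary, 143 ± 45.9 FPKM in liver, 128 ± 47.3 FPKM in muscle and 18.7 ± 3.02 FPKM in gonad. All 3 genes were highest in brain and lowest in gonad, with no overlap of the 6 libraries with those of any other tissue, while pituitary, liver and muscle overlapped one another.

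**Figure D1:**
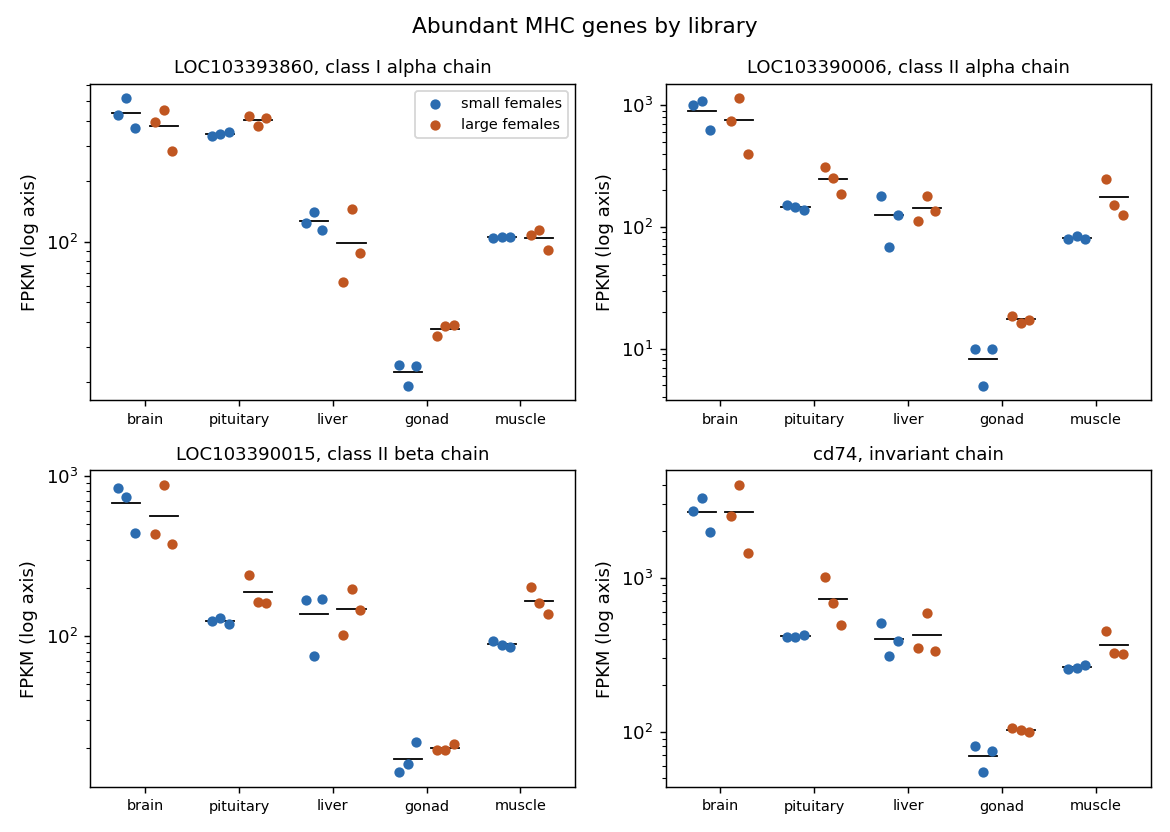
FPKM (log axis) of the 4 abundant MHC genes in each of the 30 libraries by tissue, with small females in blue, large females in orange and the mean of 3 libraries as a line. The 6 gonad libraries lie below all others in each panel, and brain lies above the other tissues for the 3 class II genes.

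The order of the tissues depended on how libraries were scaled. TMM, edgeR's scaling by the trimmed mean of gene ratios, raised liver by 2.06 and muscle by 1.94 on the log2 scale relative to brain against scaling by total reads. Under TMM, LOC103393860 differed between brain and liver by -0.17 ± 0.12 (SE) on the log2 scale (edgeR adjusted p = 0.213), where the ratio of mean FPKM was 3.61. The drop of LOC103393860 in gonad was called against brain under TMM as well, with a log2 difference of 3.46 ± 0.14 (SE) and an edgeR adjusted p of 2.24e-18. For cd74 the brain exceeded the pituitary by 2.17 ± 0.21 (SE) and the liver by 0.63 ± 0.21 (SE) on the log2 scale under TMM (edgeR adjusted p = 2.57e-09 and 0.0084). For LOC103390006 the brain exceeded the liver by 0.56 ± 0.23 (SE) and muscle by 0.84 ± 0.23 (SE) (edgeR adjusted p = 0.0298 and 0.00172). For LOC103390015 the same differences were 0.03 ± 0.22 (SE) and 0.38 ± 0.22 (SE) (edgeR adjusted p = 0.914 and 0.112), so that under TMM the beta chain was not called higher in brain than in liver or muscle, where the ratios of mean FPKM were 4.31 and 4.82. TMM placed the pituitary below liver and muscle for cd74, LOC103390006 and LOC103390015, the opposite of the order of their mean FPKM. Of all genes, 60.2% were called between brain and pituitary, 69.2% between brain and liver, 74.8% between brain and muscle, 87.2% between brain and gonad, 66.1% between pituitary and liver and 73.7% between pituitary and muscle. Of the 9 MHC genes tested over all 30 libraries 9 differed between tissues, against 99.1% of all genes, so the count says nothing particular of them.

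The balance of the classes within a library does not depend on that scaling. The summed class II FPKM divided by the summed class I FPKM was 9.94 ± 1.98 (SD, n = 6) in brain, 6.43 ± 1.83 in liver, 5.44 ± 1.72 in muscle, 4.32 ± 0.598 in gonad and 2.45 ± 0.707 in pituitary. No brain library overlapped one from pituitary, gonad or the small muscle group, but brain and liver overlapped. In the pituitary the ratios were 2.07, 2.02 and 1.95 in small and 3.68, 2.95 and 2.05 in large females. In muscle they were 4.09, 4.09 and 4.09 in small and 8.33, 5.62 and 6.43 in large females, so that the large libraries were all above the small ones. The invariant chain supplied between 50.0 and 71.3% of the class II sum, and its level over that of the pair LOC103390006 and LOC103390015 was 2.76 ± 0.342 in gonad and 1.31 ± 0.261 in muscle.

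**Figure D2:**
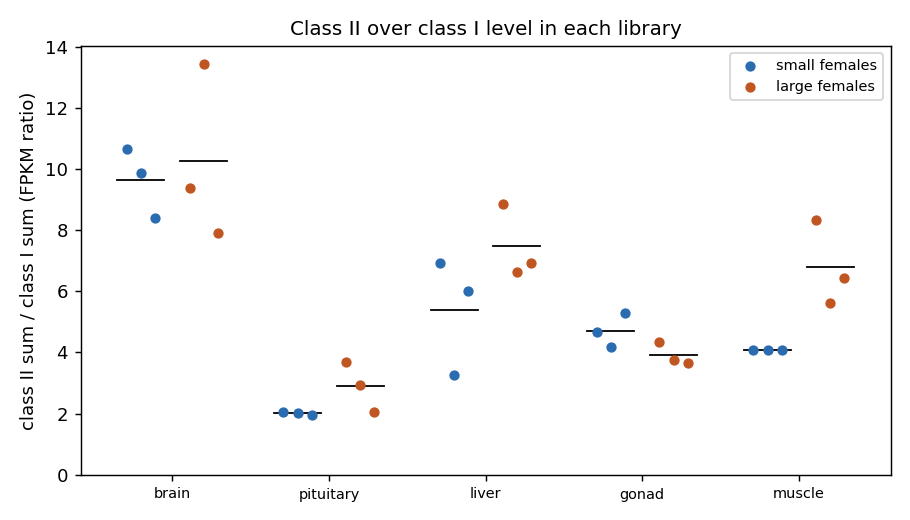
Ratio of the summed FPKM of the 8 class II genes to that of the 2 class I genes in each library by tissue, with small females in blue, large females in orange and lines at the means. Brain holds the highest mean, 9.94, and pituitary the lowest, 2.45, and the 3 large muscle libraries lie above the 3 small ones.

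Genes of leukocytes in general and of macrophages were highest in brain per length, while the sums of T cell and of B cell genes were not. The summed FPKM of 4 leukocyte genes (ptprc, coro1a, lcp1 and ptpn6) had a median of 310.1 in brain against 52.7 in liver, 47.9 in pituitary, 28.7 in muscle and 3.56 in gonad, and 6 macrophage and microglia genes had medians of 113 in brain and 2.51 in gonad, with mpeg1 listed at 0 in all 6 brain libraries. The median sum of 11 T cell genes was highest in gonad, at 58.5 against 37.1 FPKM in brain. That gonad sum came from part of the list. In gonad 3 of the 11, listed as cd3e, cd247 and cd8b, were at 0 in all 6 libraries, and 4 passed the filter on low counts. In brain 1 (cd8b) was at 0 in all 6 libraries and 9 passed. The median sum of 15 B cell genes was 110.0 in muscle, 105.4 in brain, 97.4 in gonad, 92.0 in pituitary and 24.7 FPKM in liver. This gonad sum also came from part of its list. Of the 15, 4 passed the filter in gonad and 2 were at 0 in all 6 libraries. The filter passed 12 in brain, 10 in pituitary, 8 in muscle and 6 in liver. In such bulk tissue, fewer cells of a type and less RNA per cell cannot be told apart, and the part of these cells in the MHC levels was not tested.

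The size comparison asked how large and small females differed within each tissue. Of the genes tested, the class II alpha chain LOC103390006 rose in large females in pituitary, gonad and muscle, the beta chain LOC103390015 rose in muscle, and the class I gene LOC103393860 rose in gonad. No MHC gene fell in large females in any tissue. The libraries of 3 groups were nearly alike: the squared difference between 2 libraries over its sampling variance, averaged over genes with 100 to 1000 counts and equal to 1 for pure sampling noise, lay between 1.69 and 1.85 for small females' pituitaries, between 1.94 and 2.51 for large females' gonads and between 1.77 and 1.92 for small females' muscle, while the other 7 groups gave 5.41 to 47.8. Nothing in the labels says how the pools of a group were kept apart, so p-values measure only the spread between these libraries. The 5 calls all involve 1 of these 3 groups, and with the 3 libraries of that group summed to 1 no MHC gene was called in any of the 3 tissues. That fit of 1 against 3 called 0 genes of the whole table in pituitary, 12 in gonad and 0 in muscle, so the loss says nothing of the MHC genes in particular.

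Among class I genes, LOC103393860 in gonad stood at 49.4, 43.6 and 50.8 CPM in the small and 59.2, 65.5 and 65.9 CPM in the large females. The groups did not overlap, and the gene was higher in large females (log2 fold change 0.41 ± 0.12 (SE), edgeR adjusted p = 0.0328), but the adjusted p rose to between 0.0789 and 0.147 without any 1 of the large gonad libraries and to 0.0657 with the replicate number as a block. In muscle it stood at 203, 202 and 207 CPM in the small fish and 209, 182 and 202 CPM in large females. The muscle groups overlapped, with the smallest change of the gene in any tissue (log2 fold change -0.04 ± 0.15 (SE), edgeR adjusted p = 0.863). In pituitary and liver all 3 large libraries were above the small ones without passing the test, with log2 fold changes of 0.19 (edgeR adjusted p = 0.196) and 0.36 (edgeR adjusted p = 0.463). The liver value turns negative on the FPKM scale, where it was -0.43, since TMM raised large against small liver by 0.79 on the log2 scale; that shift was 0.15 in brain and -0.31 in gonad.

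The alpha chain LOC103390006, which with a beta chain forms the peptide groove, stood in muscle at 78, 82.6 and 79.2 CPM in the small fish and 244, 123 and 143 CPM in large females. All large libraries were above all small ones, and large replicate 1 was the highest (log2 fold change 1.09 ± 0.25 (SE), edgeR adjusted p = 0.0138). Its neighbour LOC103390015 stood in muscle at 115, 108 and 107 and 249.6, 164 and 195 CPM. The beta chain also did not overlap between the size classes (log2 fold change 0.88 ± 0.19 (SE), edgeR adjusted p = 0.0103). The invariant chain cd74 stood in muscle at 309, 308 and 328 and 544, 324 and 443 CPM. Its groups overlapped and it was not called (log2 fold change 0.47 ± 0.20 (SE), edgeR adjusted p = 0.119). Of 6 MHC genes tested in muscle 2 rose and 0 fell, against 13.1% of all genes tested that rose and 10.4% that fell, and 3 of the 6 had all large libraries above all small ones, against 21.9% of all genes. Both calls ended without any 1 of the small muscle libraries, at adjusted p between 0.0565 and 0.0703 by edgeR, and held without any 1 of the large ones. Without small replicate 1, 2 or 3 the calls over all genes fell too, from 3128 to 1330, 1253 and 1371.

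Other genes moved in muscle beside these. The sum of a list of 4 liver genes was 1796, 1844 and 1917 CPM in the small fish. In large muscle it was 2506, 153 and 182 CPM, with 0 of the 4 called. Red blood cell genes fell in 5 of 5 tested, and their summed level was 3425 to 3566 CPM in the small fish and 1896 to 2257 CPM in large females. The oocyte genes gdf9, bmp15 and zar1 rose in 3 of 3, from a sum of 53.2 to 60.6 to 120.5 to 272 CPM. LOC103390006 stood at 4.96 to 18.7 FPKM in gonad and 79 to 247 FPKM in muscle, and the part of the oocyte genes in its rise was not tested. The leukocyte sum was 71.4, 78.2 and 65.9 CPM in the small fish and 128, 53.3 and 59.9 CPM in large muscle, so that large replicate 1 stood highest in this sum as it did for the MHC pair. Of the macrophage and microglia genes csf1rb rose, 1 of 5 tested. The T cell kinase gene lck (1 of 4) and the endothelial pecam1b (1 of 6) rose and 1 of 8 B cell genes fell. Of all genes tested in muscle 13.1% rose and 10.4% fell, so single calls in lists of 4 to 8 genes say little of those cell types. The B cell sum was 120, 123 and 116 CPM in the small fish and 312, 128 and 60.6 CPM in large muscle. The T cell sum was 7.81, 9.02 and 9.93 CPM in the small fish and 22.05, 15.3 and 11.5 CPM in large muscle. Large replicate 1 was the highest library in both sums. The part of all these genes in the result was not tested.

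In pituitary LOC103390006 stood at 153, 145 and 135 CPM in the small fish and 289, 241 and 183 CPM in large females. The groups did not overlap (log2 fold change 0.72 ± 0.15 (SE), edgeR adjusted p = 0.0326). The beta chain LOC103390015 stood at 156, 163 and 146 and 281, 196 and 199.9 CPM and was not called (log2 fold change 0.54 ± 0.14 (SE), edgeR adjusted p = 0.0647). The invariant chain cd74 stood at 502, 505 and 512 and 1161, 808 and 590.0 CPM and was not called either (log2 fold change 0.75 ± 0.21 (SE), edgeR adjusted p = 0.0726). For all 3 genes the large libraries were above the small ones, and replicate 1 was the highest. Of 7 MHC genes tested 1 rose, against 2.42% of all genes, and 0 fell, against 3.4%; 5 of the 7 had all large libraries above all small ones, against 14.2% of all genes.

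The pituitary call was lost with some single libraries left out, where calls over all genes fell as well. With all libraries 912 genes were called. Without small replicate 1, 2 or 3 the number was 129, 155 and 148, and without large replicate 1 it was 695. The edgeR adjusted p of LOC103390006 was 0.135, 0.149 and 0.171 without small replicate 1, 2 or 3 and 0.0589 without large replicate 1. Large pituitary replicate 2 stood apart, with the myelin gene mbp at 150.5 FPKM against 0.72 to 5.26 FPKM in the other pituitary libraries. Without that library 4 of 7 MHC genes were called, and the log2 fold change of LOC103390006 was 0.71. Calls over all genes rose as well, from 912 to 2386, so the higher count is not particular to the MHC genes. The leukocyte sum was 116, 111 and 106 CPM in the small fish and 269, 163 and 101 CPM in large pituitaries, again highest in large replicate 1. The summed B cell genes were 60.7 to 69.3 CPM in the small fish and 115 to 159 CPM in large females, with 2 of 10 tested called. Red blood cell genes fell in 3 of 5 tested, from 639 to 688 to 332 to 453 CPM in sum. Endothelial genes fell in 2 of 6, from 234 to 245 to 156 to 162 CPM. Of all genes tested in pituitary 2.42% rose and 3.4% fell. The T cell gene cd8b fell, 1 of 8 tested, and gh1, the growth hormone gene of the pituitary, fell by 1.18 on the log2 scale. The part of these genes in the result was not tested.

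In gonad LOC103390006 was scarce, at 10.2, 5.75 and 10.7 CPM in the small fish and 16.6, 14.3 and 15 CPM in large females. The groups did not overlap (log2 fold change 0.77 ± 0.23 (SE), edgeR adjusted p = 0.04). Its neighbour LOC103390015 stood at 18.2, 23 and 29.3 and 21.7, 21.5 and 23.1 CPM, and its groups overlapped (log2 fold change -0.09 ± 0.18 (SE), edgeR adjusted p = 0.751). The invariant chain cd74 stood at 102, 76.7 and 98 and 115, 110 and 106 CPM. Its groups did not overlap but it was not called (log2 fold change 0.26 ± 0.12 (SE), edgeR adjusted p = 0.157). Of 6 MHC genes tested in gonad 2 rose, against 10.9% of all genes, and 0 fell, against 13.5%; 3 of 6 had all large libraries above all small ones, against 23.9% of all genes. The call of LOC103390006 ended without any 1 of the large gonad libraries, at edgeR adjusted p between 0.108 and 0.144. Without large replicate 1, 2 or 3 the calls over all genes fell too, from 3455 to 1355, 1221 and 1134. The leukocyte sum was 2.47 to 8.64 CPM in the small fish and 8.43 to 9.96 CPM in large gonads. The endothelial sum was 279.6 to 344 and 219.9 to 228 CPM, with a fall of pecam1b, 1 of 5 tested. The oocyte sum was 3019 to 3673 and 2369 to 2409 CPM, with a fall of zar1, 1 of 3. The part of these in the result was not tested.

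In liver 0 of 6 MHC genes tested were called by edgeR, against 1.31% of all genes, and 0 by DESeq2. LOC103390006 stood at 123, 46.7 and 111 CPM in the small fish and 179, 164 and 198 CPM in large livers (log2 fold change 0.94 ± 0.36 (SE), edgeR adjusted p = 0.195), and cd74 at 429, 257 and 418 and 683, 653 and 589 CPM (log2 fold change 0.80 ± 0.31 (SE), edgeR adjusted p = 0.193). Neither gene overlapped between the size classes, and they were the 2 of 6 with an unadjusted p under 0.05, against 20.1% of all genes. In all, 5 of the 6 genes had every large library above every small one, against 13.1% of all genes. These are TMM-scaled values. In FPKM, LOC103390006 stood at 178, 69 and 126 in small and 111, 180.1 and 136 in large livers and cd74 at 508, 311 and 388 and 347, 586 and 332, both with overlap. In that unit 0 of the 6 genes had every large library above every small one, against 1.97% of all genes, and 1 (LOC103388185) had every large one below, against 36.2%. The lowest log2 fold changes over the alternatives were 0.27 for LOC103390006 and 0.047 for cd74. Large liver replicate 2 held the myelin gene mbp at 37.65 FPKM, against 0 to 0.19 FPKM in the other liver libraries. The leukocyte sum was 96.5 to 162 CPM in the small fish and 107 to 131 CPM in large livers. The red blood cell sum was 81.1 to 642 and 967 to 1515 CPM, with 0 of 5 tested called. The part of these differences in the liver values was not tested.

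In brain, where class II was highest in FPKM, 0 of 8 MHC genes tested were called by edgeR. Of these, 0 had an unadjusted p under 0.05, and DESeq2 called 0 MHC genes. Of all genes tested in brain 0.0118% were called and 6.33% had an unadjusted p under 0.05. All 8 overlapped between the size classes in normalised CPM, where 12.1% of all genes did not. In FPKM 1 of the 8, LOC103388961, was lower in every large library, as were 11.9% of all genes. The invariant chain cd74 stood at 3114, 3589 and 2314 CPM in the small fish and 2985, 4735 and 2073 CPM in large brains (log2 fold change 0.12 ± 0.30 (SE), edgeR adjusted p = 0.967). The lowest and the highest of the 6 libraries were both of large females. The leukocyte sum was 574 to 913 CPM in the small fish and 634 to 969 CPM in large brains. The sum of the brain genes was 1710 to 2297 and 3268 to 6466 CPM, with 0 of 4 tested called. That of the pituitary genes was 41.1 to 66.4 and 4.88 to 14.9 CPM, with 0 of 6 tested called. The part of these in the brain values was not tested.

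**Figure D3:**
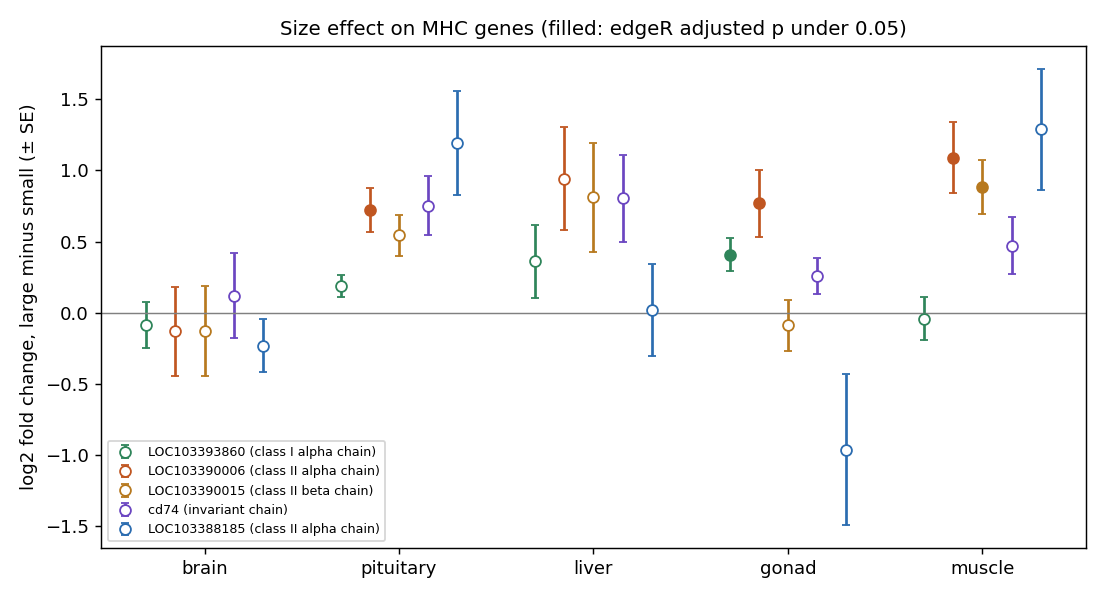
Log2 fold change, large minus small females, with its SE for 5 MHC genes in each tissue, from the edgeR fit of 3 against 3 libraries. Filled points passed an adjusted p of 0.05: LOC103390006 in pituitary, gonad and muscle, LOC103390015 in muscle and LOC103393860 in gonad.

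The scarcer alpha chain LOC103388185 was called for a size effect that differed between tissues, on few counts. It had 5, 11 and 12 counts in small and 18, 38 and 17 in large muscle libraries. In pituitary it had 10, 16 and 8 counts in small and 22, 29 and 34 in large libraries. It stood in muscle at 0.583, 1.4 and 1.35 CPM in the small fish and 2.22, 3.16 and 2.75 CPM in large females, and in pituitary at 1.48, 2.2 and 1.13 and 2.81, 4.04 and 4.27 CPM. In both tissues the groups did not overlap but the test was not passed, with log2 fold changes of 1.29 (edgeR adjusted p = 0.0547) and 1.19 (edgeR adjusted p = 0.0975). In gonad it stood at 9.06, 3.7 and 1.78 CPM in the small fish and 3.12, 2.69 and 1.72 CPM in large females, with overlap (log2 fold change -0.96 ± 0.53 (SE), edgeR adjusted p = 0.207). In the test of the difference itself, over all 30 libraries, it was the 1 MHC gene of 9 called (edgeR adjusted p = 0.0146). Of all genes 25.9% were called there, so 1 of 9 does not exceed the share over all genes. For LOC103390006, LOC103390015, cd74 and LOC103393860 the edgeR adjusted p of that test was 0.189, 0.142, 0.568 and 0.517, so that their size effects were not shown to differ between tissues.

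The other scarce genes gave few values. The beta chain LOC103388958 had 3, 18 and 227 counts in the small gonad libraries and 15, 23 and 15 in the large ones. Small gonad replicate 3 held most of its counts, the groups overlapped, and the log2 fold change was -2.48 (edgeR adjusted p = 0.112) with that library and 0.28 without it. LOC103388958 was at 0 in all 6 liver libraries. The beta chain LOC103388186 had 19, 15 and 1 counts in small and 2, 17 and 3 in large brains and was tested in brain alone. The alpha chain LOC103388961 was tested in brain and pituitary, where its groups overlapped. The gene rfx1, a transcription factor that the wording of its product name brings in and that is not an MHC chain, was highest in brain at 3.79 ± 0.612 FPKM (SD, n = 6) and was not called for size in the 4 tissues where it was tested.

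**Figure D4:**
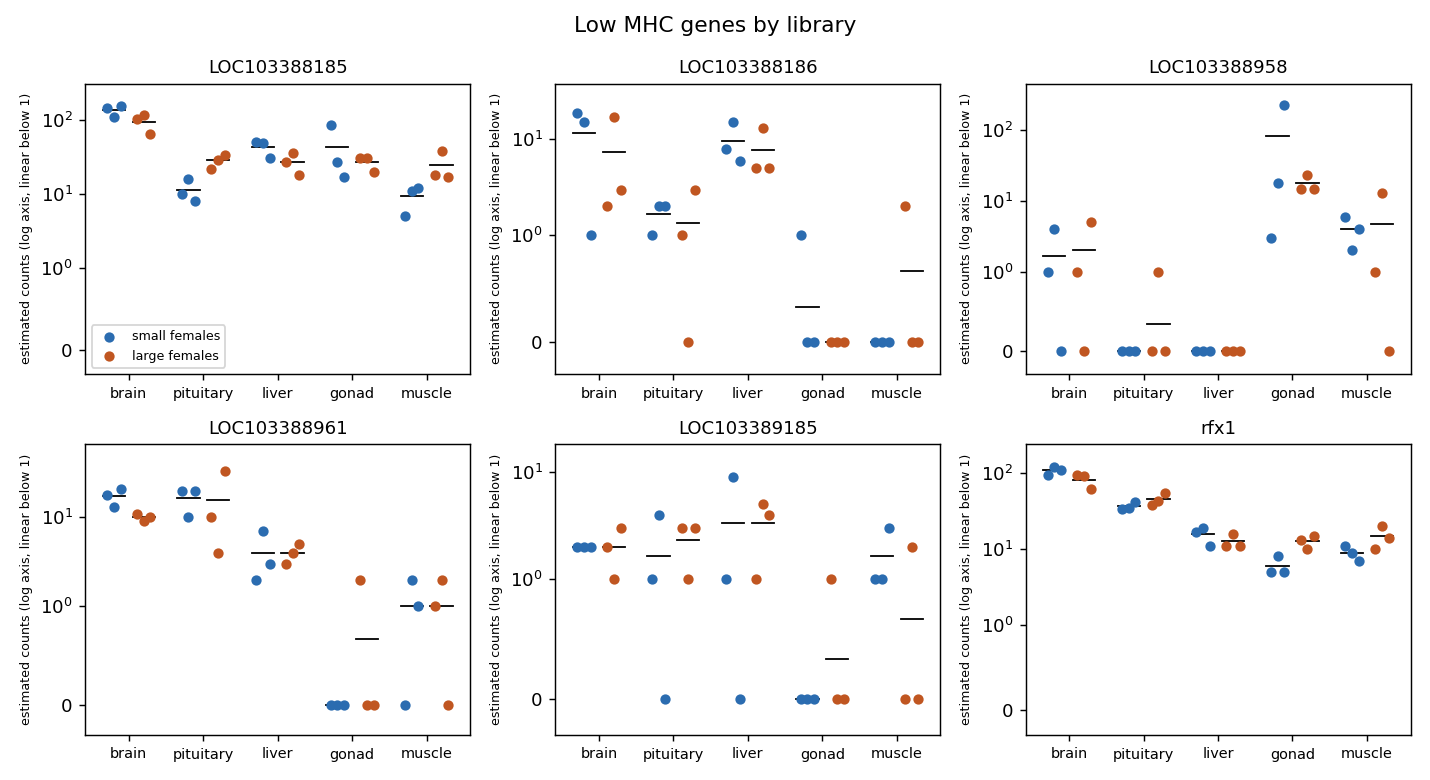
Estimated counts (log axis, linear below 1) of the 6 scarce MHC genes in each library by tissue, with small females in blue, large females in orange and lines at the means. Small gonad replicate 3 stands alone for LOC103388958 with 227 counts, and LOC103389185 never exceeds 9 counts.

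Of 25 genes of the class I pathway, 4 of 23 tested rose in large pituitaries and 0 fell, with a list median of 0.25 on the log2 scale, beside the 2.42% of all genes that rose and 3.4% that fell there. The immunoproteasome subunit psmb10 rose from 6.28 ± 0.733 to 13.7 ± 3.2 CPM (log2 fold change 1.12, adjusted p = 0.0245) by edgeR, and the transporter subunit tap2a rose from 12.6 ± 0.446 to 23 ± 5.91 CPM (log2 fold change 0.87, adjusted p = 0.0357). The peptide editor tapbpl and the tapasin-like LOC103377786 rose as well, by 0.49 and 0.46 on the log2 scale. All 4 calls ended without any 1 of the small pituitary libraries or without large replicate 1, those of tapbpl and LOC103377786 also without large replicate 3, and DESeq2 called 3 genes of the list. In gonad 1 of 20 rose (calr3b) and 2 fell (psmb9a, an immunoproteasome subunit, and the calreticulin-like LOC103399827), and these 3 calls ended without large gonad replicate 2, that of calr3b also without large replicate 1, that of LOC103399827 without large replicate 3, and that of psmb9a without either of these or small replicate 3. Of all genes 10.9% rose and 13.5% fell in gonad and 13.1% rose in muscle, so that 1 and 2 of 20 in gonad and 1 of 22 in muscle do not exceed the shares over all genes. In muscle 1 of 22 rose (calr), a call that ended without any 1 of the large libraries or without small replicate 1 or 2. Small pituitary, large gonad and small muscle are the groups described above as nearly alike. The calls of this list in these 3 tissues therefore carry the same limit as the MHC calls. In brain 0 of 23 were called by edgeR (1 with an unadjusted p under 0.05, 0 by DESeq2), and in liver 0 of 21 (9 with an unadjusted p under 0.05, 4 by DESeq2). Of all genes tested by edgeR, 6.33% had such an unadjusted p in brain and 20.1% in liver. Beta-2-microglobulin, the light chain of class I, was listed in several copies, and LOC103382993 stood highest in pituitary at 1609 ± 269.7 FPKM (SD, n = 6) and at 23.2 ± 8.13 FPKM in gonad.

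Of 9 further genes of the class II pathway, 3 of 9 tested rose in large muscle and 0 fell, with a list median of 0.58, against 13.1% of all genes that rose in muscle and 10.4% that fell. These were the cathepsin S-like LOC103394264, from 92.5 ± 7.23 to 313 ± 134 CPM (log2 fold change 1.76, adjusted p = 0.00363) by edgeR, and ifi30a and ifi30, which encode a thiol reductase of the endosome, with log2 fold changes of 1.12 and 1.62. The call of ifi30 ended without small muscle replicate 2, and the other 2 held without each single library. LOC103394264 stood at 5721 ± 1111 FPKM (SD, n = 6) in the gonad and at 184 ± 158 FPKM in muscle. In CPM scaled within each tissue, ifi30 stood at 241 and 145 in small and large gonads and at 3.06 and 9.37 in small and large muscle. For ifi30a these values were 538 and 431 in gonad and 35.1 and 76 in muscle. The oocyte genes rose too in large muscle, and their part in these 3 rises was not tested. In gonad 1 of 8 rose (ctss2.1) and 4 fell, against 10.9% and 13.5% of all genes, among them LOC103394264 from 8589 ± 864 to 4901 ± 92.7 CPM (log2 fold change -0.81, adjusted p = 0.00193) by edgeR and rfxank, a subunit of the RFX complex that binds class II promoters in mammals, with a log2 fold change of -1.10. The 4 falls held without each single library, while the rise of ctss2.1 held without small replicate 2 and ended without any other single library, at edgeR adjusted p up to 0.117. The large gonad and small muscle libraries are among the groups described above as nearly alike. Leaving out single libraries cannot show whether such libraries were separate pools. The calls of this list in gonad and muscle therefore carry the same limit as the MHC calls. The transactivator gene ciita was called by edgeR in none of the 4 tissues where it was tested, with log2 fold changes between 0.33 in brain and 1.47 in liver. Of 8 tested, edgeR called 0 in brain (1 with an unadjusted p under 0.05, 0 by DESeq2), 0 in pituitary (1 and 0) and 0 in liver (2 and 1). Among all genes tested by edgeR, 6.33% had such an unadjusted p in brain, 22.8% in pituitary and 20.1% in liver.

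Of 12 interferon response genes, 2 of 8 tested rose in large livers (irf1b and LOC103384324), where 0.732% of all genes rose. In large gonads 3 of 7 rose (LOC103394560, irf9 and mx1), against 10.9% of all genes, and in large muscle 1 of 8 (irf7), against 13.1%. Of the gonad genes, irf9 stood at 0.438 ± 0.300 CPM in small females, near the detection floor, and mx1 was also low there, at 1.02 ± 0.588 CPM. In brain edgeR called 0 of 9 and DESeq2 0, and 4 had an unadjusted p under 0.05 by edgeR, against 6.33% of all genes. In pituitary edgeR called 0 of 9 and DESeq2 1, and 3 had such an unadjusted p, against 22.8% of all genes. DESeq2 called 5 in liver and 1 in gonad. The factor irf1b rose from 5.63 ± 0.628 to 16.3 ± 4.33 CPM (log2 fold change 1.52, adjusted p = 0.036) by edgeR. With limma on log2(FPKM + 1) the log2 fold changes in liver were 0.62 for irf1b and 0.74 for LOC103384324, and neither was called. Both liver calls ended without any 1 of the large liver libraries or small replicate 1 or 2, the gonad calls without any 1 of the large gonad libraries (irf9 also without small replicate 1 or 3, mx1 without small replicate 1 or 2), and the muscle call without any 1 of the small muscle libraries or large replicate 3. The gonad and muscle calls also involve the nearly alike libraries of large gonads and small muscle, and so carry the same limit as the MHC calls. The median log2 fold change of the MHC genes tested was 0.54 in pituitary, 0.60 in liver, 0.08 in gonad, 0.77 in muscle and -0.13 in brain, and that of all genes tested lay between -0.02 and 0.03 in the 5 tissues. TMM scaling itself centres the gene ratios near 0, so the values of all genes are no independent reference. The liver value of 0.60 depends on that scaling, which raised large against small liver by 0.79 on the log2 scale.

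**Figure D5:**
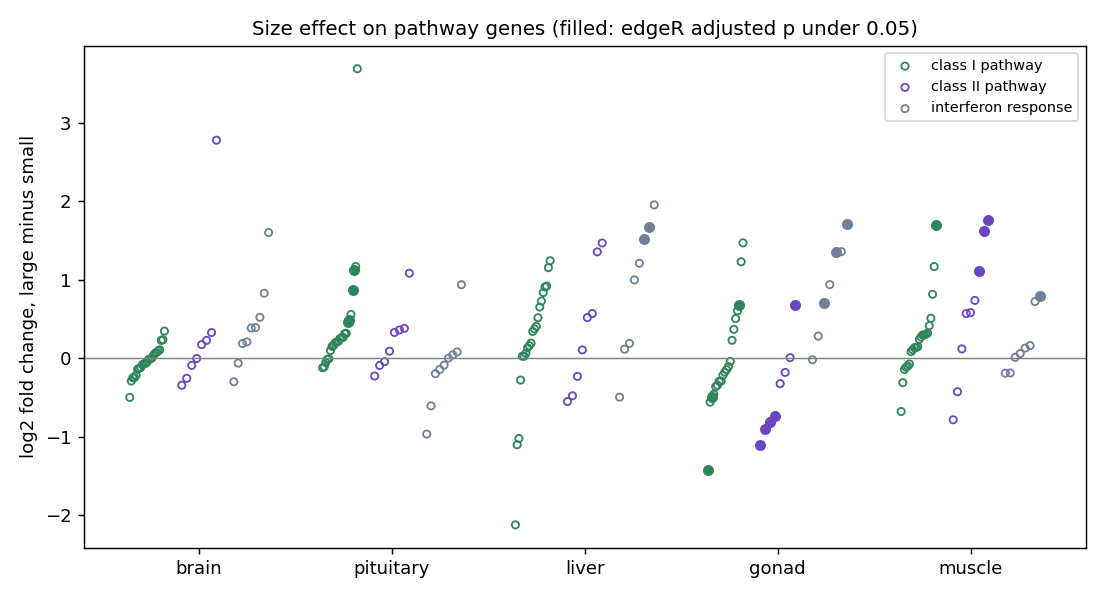
Log2 fold change, large minus small females, of each tested gene of the class I pathway, the class II pathway and the interferon response lists by tissue, ordered by value within a list. Filled points passed an edgeR adjusted p of 0.05, and brain has none.

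Likeness of pattern was measured as Pearson's r of log2(FPKM + 1) over the 10 group means among 16673 genes, as a description. The genes most like cd74 were LOC103386906, a second gene named as an MHC II gamma chain (r = 0.999), fermt3 (0.995), the CD53-like LOC103397570 (0.993), lcp1 (0.989) and acap1 (0.989). Those most like LOC103393860 were tpm4, the NLRC3-like LOC103393516 and ptma (each 0.993), the Rab-11B-like LOC103376760 and ccni (each 0.992). The MHC genes LOC103390006 and LOC103390015 ranked 29 and 32 for cd74, and cd74 ranked 1004 for LOC103393860.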

How the data were processed

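Estimated counts and FPKM per gene and library were deposited by the authors in 1 table, with no further scaling of the counts apparent in the file. The submitters' processing notes name edgeR; no aligner, counter or genome build was stated in the sources. Of the estimated counts 2.00% were not whole, and counts were rounded before testing; those of the MHC genes were all whole.

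Large and small females were compared within each tissue with edgeR 4.0.16 (R 4.3.3): filterByExpr, TMM and the quasi-likelihood F test, two-sided, with Benjamini-Hochberg adjustment over all genes tested and a threshold of 0.05. The SE is the log2 fold change divided by the root of F. CPM are TMM-normalised within a tissue. Differences of the size effect between tissues (4 contrasts) and between tissues (10 pairs) used all 30 libraries. Class sums and ratios are descriptions. The scripts were tested on simulated data. Alternatives used DESeq2 1.42.0, limma 3.58.1 on log2(FPKM + 1) or log2(FPKM + 0.1), other scalings and filters, a replicate block and libraries left out. Precision is limited by 3 libraries a group and by counting error below the 3-count floor.

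Named with values were the MHC genes called in any tissue, the most abundant class I and class II genes and LOC103390006; every other one is accounted for. In the pathway lists, called genes were named. The genes and lists were chosen with earlier results of these data known. Gene names came from the table and from RefSeq (Cse_v1.0).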

Additional observations from a re-analysis of the deposited data

Results flagged for a closer look

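The size effect of LOC103388185 differed between tissues in the edgeR test of the difference (adjusted p = 0.0146), with log2 fold changes in the fit of 30 libraries of 1.39 in muscle, 1.20 in pituitary, -0.06 in liver, -0.22 in brain and -0.98 in gonad. Its counts in the small muscle and small pituitary libraries ran only from 5 to 16.

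The same edgeR test over 30 libraries passed for 9 of 42 tested genes of the 3 pathway and interferon lists, 21.4% against 25.9% of all genes, and 8 of these are named above. The log2 fold changes given for them are those of the separate fit within each tissue. For the cathepsin S-like LOC103394264 the adjusted p was 0.0112, with log2 fold changes of 1.76 in muscle, -0.81 in gonad and 2.78 in brain. For ifi30 it was 0.00271, with 1.62 in muscle and -0.74 in gonad. For ifi30a it was 0.00117, with 1.12 in muscle, 1.36 in liver and -0.32 in gonad. For rfxank it was 0.0201, with -1.10 in gonad and 0.74 in muscle. For tapbpl it was 0.00732, with 0.49 in pituitary, 1.16 in liver and -0.34 in gonad. For calr it was 0.00106, with 1.70 in muscle, where small females stood at 1.15 ± 0.982 CPM, and -2.12 in liver. For calr3b it was 0.0158, with 0.68 in gonad and -1.10 in liver. Within a tissue, the first value of each gene was called, as were the gonad values of LOC103394264 and ifi30. The other values were not called. For irf9 it was 0.0346, with 1.72 in gonad, where its level in small females was 0.438 CPM, near the detection floor.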

How the results depend on the processing

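Of the MHC genes called for size, the pituitary count of 1 became 3 with DESeq2, 2 with limma on log2(FPKM + 1), 0 with that limma fit unfiltered, 0 in the fit of all 30 libraries and 0 with the nearly alike libraries summed to 1, and ran from 0 to 4 with single libraries left out. The gonad count of 2 became 0 in the fit of all 30 libraries, 1 with the replicate block and 0 with the nearly alike libraries summed, was 3 in each limma fit, and ran from 0 to 3 with single libraries left out. The muscle count of 2 became 1 with limma unfiltered, 3 in the fit of all 30 libraries and 0 with the nearly alike libraries summed, and ran from 0 to 3 with single libraries left out. The count of 1 for size effects differing between tissues became 2 with limma on log2(FPKM + 1), and ran from 1 to 2 with single libraries left out (2 without large brain replicate 2). With the nearly alike libraries summed, 0, 12 and 0 genes of all were called in pituitary, gonad and muscle. The brain and liver counts of 0 did not change under the alternatives run, and the tissue count of 9 became 10 where all 10 genes were tested. None of the 5 calls changed direction. The cause of these changes was not tested.

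The class ratios in brain, liver, muscle, gonad and pituitary were 6.02, 3.91, 3.29, 2.65 and 1.49 in CPM, and 3.52, 2.63, 2.45, 1.38 and 0.943 with alpha and beta chains alone, in the same order of tissues. Without the highest gene of each class the brain ratio was 3258, and the other tissues gave no value since the remaining class I gene was at 0 in some libraries.

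Log2 fold changes that changed sign were all of genes not called. In brain, cd74 became -0.091 in each limma fit. In liver, LOC103388185 became -0.0058 with DESeq2, -0.031 without a filter, -0.63 with limma (filtered or not), -0.78 with the pseudocount of 0.1 and -0.064 in the fit of 30; LOC103393860 became -0.43, -0.44 and -0.43 with limma, and rfx1 -0.13 with limma unfiltered. In gonad, LOC103390015 became 0.23, 0.24 and 0.23 with limma. In muscle, LOC103393860 became 0.050 in the fit of 30. With single libraries left out, the ranges were -1.73 to 0.084 for LOC103388186, -0.54 to 0.070 for LOC103390015, -0.19 to 0.0074 for rfx1, -0.19 to 0.024 for LOC103393860, -0.25 to 0.35 for cd74, -0.50 to 0.12 for LOC103390006 in brain, -1.35 to 0.19 for LOC103388961 in pituitary, -0.23 to 0.18 for LOC103388185 in liver, -3.07 to 0.28 for LOC103388958, -0.26 to 0.10 for LOC103390015 in gonad, -0.089 to 0.015 for LOC103393860 in muscle.

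Within a tissue, small and large libraries of the same replicate number had correlations of their deviations from -0.09 to 0.26, and 11 of 30 libraries correlated best with their own number. Whether same-numbered libraries of different tissues came from the same fish was not tested. The replicate block moved no count other than that of gonad. Genes under about 10 counts a library, such as LOC103389185, were below what this depth can compare.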

Other observations

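A second gene named as an MHC II gamma chain, LOC103386906, lies outside the naming rule used above. It stood at 1111 ± 344 FPKM (SD, n = 6) in brain, 173 ± 79.9 FPKM in pituitary, 118 ± 30.9 FPKM in liver, 78.7 ± 35.2 FPKM in muscle and 16.1 ± 3.85 FPKM in gonad.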
